A study of Rattus norvegicus with 6 samples.

Results

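Platelet-activating factor (PAF) is a short-lived phospholipid signal made and destroyed by a small set of enzymes, and 10 genes of that set were followed here in rat liver. They are the plasma hydrolase Pla2g7, the intracellular hydrolases Pafah1b1, Pafah1b2, Pafah1b3 and Pafah2, the acyltransferases Lpcat1, Lpcat2 and Lpcat3, and the phospholipases Pla2g4a and Pla2g15. Every non-control probe whose accession led to one of these symbols was taken, which gave 15 of 61657 probes, for 9 of the 15284 genes named on the array. No probe was matched to Lpcat2, which is not analysed here. The group was assembled around Pla2g7 with its difference between treated and control livers already known, so the differences of the member probes are a description, given with their errors and no p-value, and no call on a member is used as evidence.

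The arrays hold total liver RNA from male Sprague-Dawley rats bought at 5 weeks of age, 1 Agilent one-colour array per rat. In the first group 3 rats received nitrilotriacetic acid trisodium monohydrate (NTA), a chelator of metal ions, at 1000 mg/kg/day, and in the second 3 rats received vehicle. The labels name the vehicle as purified water in one field and corn oil in another, and give the exposure as 28 days in one and 9 weeks in another. Which holds was not settled.

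PAF acts on cells through a G protein-coupled receptor, Ptafr, carried by leukocytes, macrophages and, in many species, platelets. In the remodelling route a cytosolic phospholipase A2 frees the acyl chain of an ether phospholipid, and a lyso-PAF acetyltransferase then adds the acetyl group that makes PAF. PAF acetylhydrolases remove that acetyl group again, and the plasma form also cleaves oxidised phospholipids on lipoproteins. In the liver this plasma form is known chiefly as a product of macrophages, including Kupffer cells, the resident macrophages of the sinusoids.

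All values are log2 of the processed signal over the 75th percentile of its array, so that 0 marks a signal equal to that percentile. That percentile lay between 464 and 558 intensity units, and from 62.4% to 64.5% of an array's probes were well above background. Vehicle replicate 3 stood apart in its local background, with a median of 40 against 54 to 61 on the other arrays. No other array had its slide or its day of scanning. All NTA arrays came from a slide without vehicle arrays, and the effects of slide and of NTA cannot be told apart. The depth of an array cannot be counted as for reads, and the number of arrays limits the precision.

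Pla2g7, the secreted PAF acetylhydrolase, had the widest difference among the members, 4.08-fold. The vehicle rats were at −2.12, −2.92 and −2.44 and the NTA rats at −0.65, −0.71 and −0.04. Every NTA rat therefore lay above every vehicle rat, with a gap of 1.41 between the nearest animals, and the gap was wider than the range within either group (0.80 with vehicle, 0.67 with NTA). In intensity units the processed signal was 119, 61.2 and 97.0 on the vehicle arrays and 333, 315 and 544 on the NTA arrays, well above background on all 6. The group means were −2.49 ± 0.40 with vehicle and −0.47 ± 0.37 with NTA (SD, n = 3 each), a log2 difference of 2.03 (SE 0.26).

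This value rests on the single probe A_43_P22042, so no other probe of Pla2g7 could be set beside it. With 1 array left out the log2 difference ran from 1.81 to 2.21, and it was 2.05 among the 5 arrays of the first scan day. With normexp background correction, which adds an offset of 50 to every signal, it was 1.40. Of all 38168 probes that passed the filter on dim signals, 38 were higher by at least as much as Pla2g7, itself included, which is 0.0996%, and 12 were lower by as much.

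**Figure D1:**
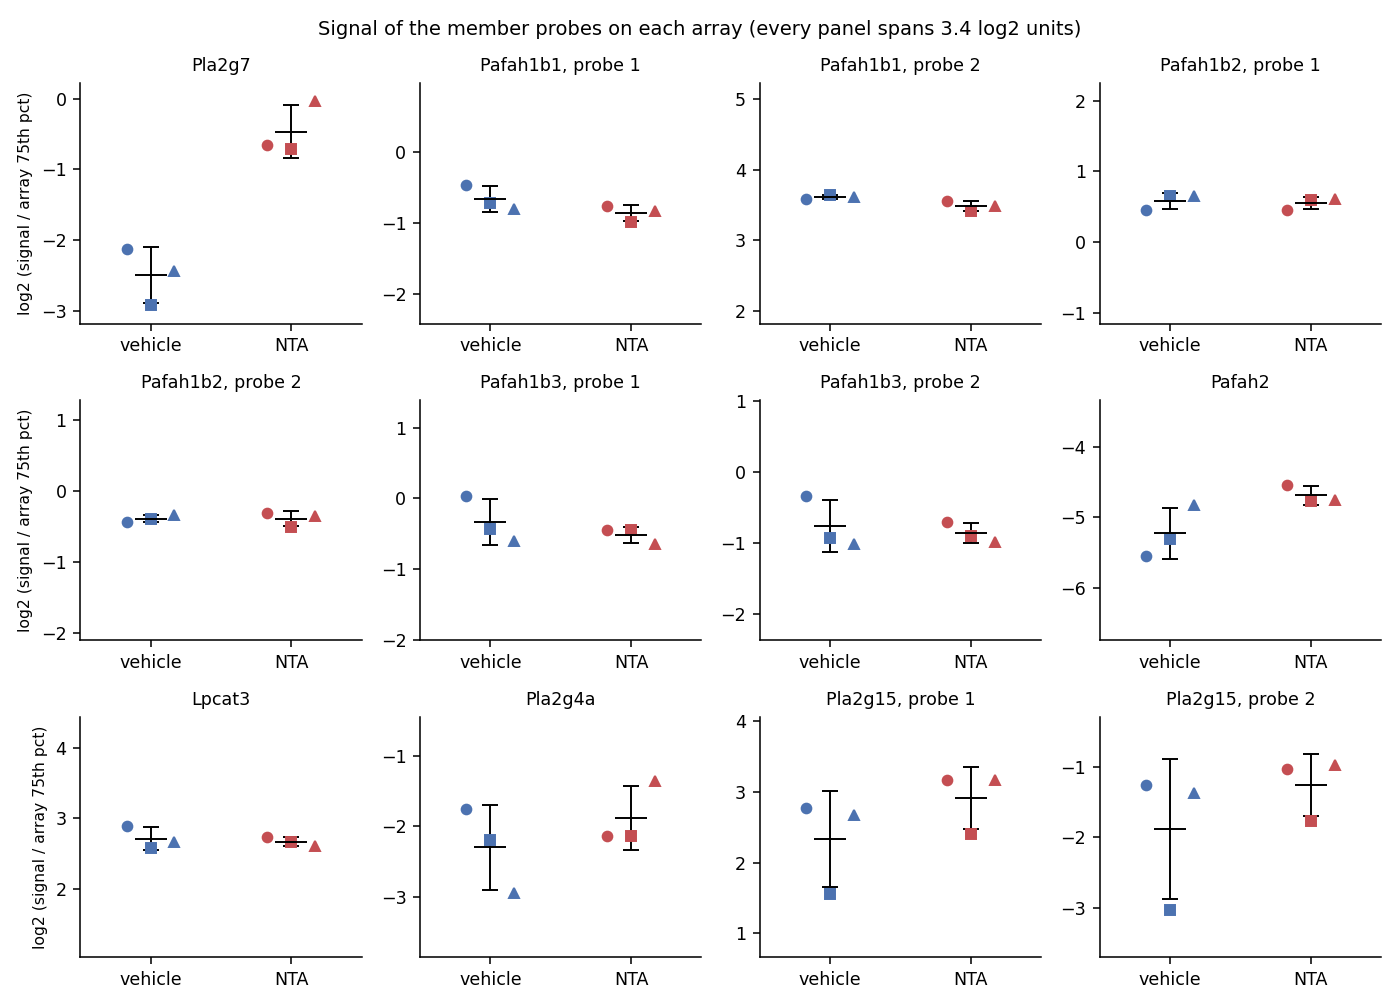
Log2 of signal over the 75th percentile of its array for the 12 member probes that passed the filter, by group. Points are single rats (circle, square and triangle for replicates 1, 2 and 3), the horizontal mark is the mean and the bar ± 1 SD (n = 3). The Pla2g7 groups are 1.41 apart, while the points of most other panels overlap.

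The sequence just upstream of Pla2g7 is shown because this gene had the widest difference of the set and its window held a motif that the other members' windows did not. The 250 bases before the RefSeq start of Pla2g7, on the minus strand of chr9:24901748-24901997 in the build GRCr8, read 5′ to 3′ as follows, with an AP-1 match (TGANTCA) in capitals.
Pla2g7: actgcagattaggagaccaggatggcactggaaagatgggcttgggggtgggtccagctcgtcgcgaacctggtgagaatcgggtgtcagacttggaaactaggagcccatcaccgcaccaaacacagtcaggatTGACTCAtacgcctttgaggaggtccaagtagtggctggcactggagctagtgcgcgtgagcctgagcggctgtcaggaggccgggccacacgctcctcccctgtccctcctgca
The match runs from 115 to 109 bases before the start. Windows of the same length were searched on both strands for 5 motifs, in 33469 RefSeq entries. AP-1 (TGANTCA, its own reverse complement) was found in 6.34% of them. The antioxidant response element core (TGACNNNGC, which can overlap AP-1) was in 10.1%, the PU.1 core (GAGGAA) in 23.3%, the GC box (GGGCGG) in 30.5% and the TATA box (TATAAA) in 12.9%. Promoters were held for 8 of the 10 members, not for Pafah1b1 and Pafah1b3. Pla2g7 was the 1 member of these 8 with an AP-1 match, and none of the other 4 motifs was in its window. The GC box was found for 4 members, Lpcat1, Lpcat2, Lpcat3 and Pla2g15, the PU.1 core for Pafah2 and the TATA box for Pla2g4a. A match is a run of letters in this window and not a measured binding site.

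The intracellular type I acetylhydrolase, in contrast, held nearly the same signal in both groups. It is a complex of the catalytic subunits Pafah1b2 and Pafah1b3 with Pafah1b1, which is also the dynein regulator LIS1. Pafah1b2 was at 0.45, 0.65 and 0.65 with vehicle and 0.46, 0.59 and 0.61 with NTA at probe A_44_P209459, a log2 difference of −0.03 (SE 0.11). Its probe A_43_P12216 was at −0.44, −0.39 and −0.33 with vehicle and −0.31, −0.51 and −0.35 with NTA (SE of the difference 0.10). The groups overlapped at both probes and the NTA means were lower by 2.24% and by less than 1%.

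Pafah1b3 carried more spread, nearly all of it in 1 vehicle rat. At probe A_43_P12888 the vehicle rats were at 0.03, −0.43 and −0.60 and the NTA rats at −0.45, −0.45 and −0.65. At probe A_44_P262102 they were at −0.34, −0.93 and −1.02 and at −0.71, −0.90 and −0.99. Vehicle replicate 1 was the highest of the 6 at both probes, and the other vehicle values lay inside the NTA range or within 0.03 of it. The log2 differences were −0.18 (SE 0.18) and −0.10 (SE 0.20), and without vehicle replicate 1 the second became 0.11.

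Pafah1b1 was slightly lower with NTA at both of its probes. The brighter, A_44_P230640, was at 3.59, 3.64 and 3.62 with vehicle and 3.56, 3.41 and 3.49 with NTA. Its groups did not overlap, but only 0.03 separated the nearest animals and the log2 difference was −0.13 (SE 0.10), or 1.09-fold lower. The other, A_44_P177448, was at −0.46, −0.72 and −0.80 with vehicle and −0.76, −0.98 and −0.83 with NTA, where the groups overlapped, with a log2 difference of −0.20 (SE 0.13). At 0.06 the brighter probe also had 1 of the smallest within-group SDs, lower than that of all but 2.55% of the probes that passed the filter.

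Pafah2, the single-chain intracellular acetylhydrolase that also cleaves oxidised phospholipids, gave a signal near background in these livers. Its probe A_64_P080321 was well above background in 1 of 3 vehicle rats and in 3 of 3 NTA rats, and it passed the filter only through the NTA group. The values were −5.54, −5.30 and −4.83 with vehicle and −4.54, −4.77 and −4.76 with NTA, so the groups were 0.06 apart. The log2 difference was 0.53 (SE 0.20), but 0.06 with normexp background correction. The second probe, A_44_P351136, was well above background in 1 vehicle and 2 NTA rats and did not pass the filter. Its NTA values, from −5.61 to −4.66, lay within the vehicle values, from −7.33 to −4.82, or just above them.

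**Figure D2:**
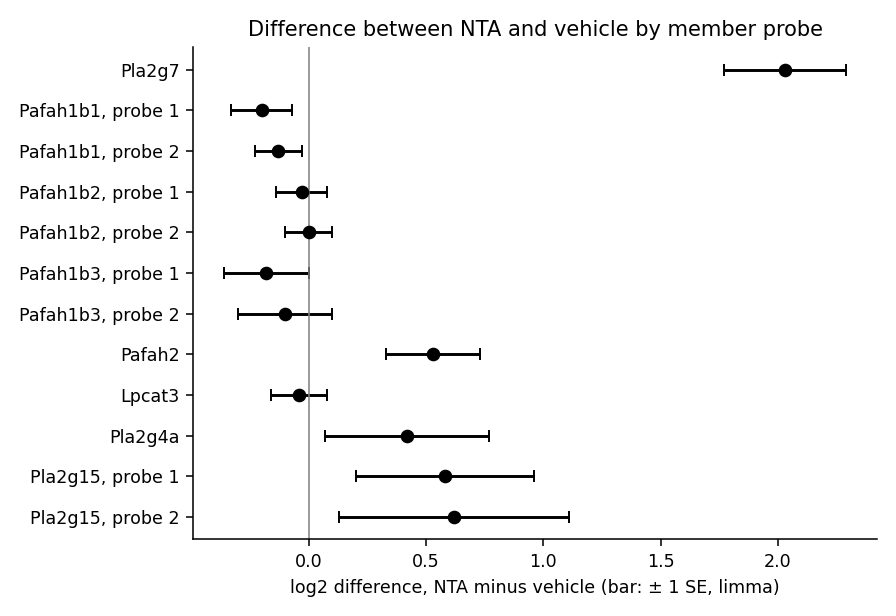
Log2 difference, NTA minus vehicle, of the 12 member probes that passed the filter. Points are the differences of group means (n = 3 each) and bars are ± 1 SE from limma. Pla2g7 is at 2.03 and the 7 probes of Pafah1b1, Pafah1b2, Pafah1b3 and Lpcat3 are between −0.20 and 0.

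On the synthetic side, Lpcat2, the main lyso-PAF acetyltransferase of inflammatory cells, had no probe, and Lpcat1 gave only a bound. Lpcat1, an acyltransferase known mostly from lung surfactant that can also acetylate lyso-PAF, was below the limit for well above background at both probes in all 6 rats. Its values ran from −7.51 to −5.25 and no fold is given. Lpcat3, the liver's main enzyme for placing polyunsaturated chains into lysophosphatidylcholine, was bright and level. It was at 2.89, 2.58 and 2.66 with vehicle and 2.74, 2.66 and 2.61 with NTA, where the NTA values lay inside the vehicle range, with a log2 difference of −0.04 (SE 0.12).

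Pla2g4a, the calcium-dependent cytosolic phospholipase A2 that frees arachidonate and leaves lyso-PAF behind, varied more between rats than between groups. The vehicle rats were at −1.75, −2.19 and −2.94 and the NTA rats at −2.14, −2.14 and −1.36. The groups overlapped, with vehicle replicate 3 lowest and NTA replicate 3 highest. The log2 difference was 0.42 (SE 0.35), and it was 0.10 without vehicle replicate 3 and 0.16 without NTA replicate 3. The highest with 1 array left out was 0.69, without vehicle replicate 1.

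Pla2g15, the lysosomal phospholipase A2, also varied widely between rats. Probe A_64_P014427 was at 2.77, 1.55 and 2.67 with vehicle and 3.17, 2.40 and 3.16 with NTA. Probe A_44_P348973 was at −1.26, −3.02 and −1.37 with vehicle and −1.04, −1.77 and −0.97 with NTA. Replicate 2 was the lowest of its group at both probes in both groups, and the groups overlapped. The log2 differences were 0.58 (SE 0.38) and 0.62 (SE 0.49). With 1 array left out they ran from 0.19 to 0.83 and from 0.06 to 0.94, lowest without vehicle replicate 2 at both probes. The pooled within-group SD was 0.57 and 0.76, above that of 94.5% and 97.6% of the probes that passed the filter.

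Counted over the set, 0 of the 12 member probes that passed the filter were past the threshold of 0.05 in limma with Benjamini-Hochberg adjustment, in a fit where 13 of 38168 probes (0.0341%) were, 13 higher and 0 lower. The count at an unadjusted p under 0.05 was 2 of 12, and 7.38% over all probes that passed the filter. The groups were apart for 2 member probes with NTA above, Pla2g7 and the Pafah2 probe, and for 1 with NTA below, Pafah1b1. Among all probes that passed, 5.55% were apart with NTA above and 7.83% with NTA below. The set was chosen on this contrast, and Pafah2 passed the filter only where it was higher, so nothing is read from these counts. Over all probes the median log2 difference was −0.02, and 44.2% had a higher mean with NTA.

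The other genes of the pathway were taken from 8 lists without the members, of which 112 of 121 genes had a probe and all but 11 of these 112 passed the filter. In limma 0 of those tested passed the Benjamini-Hochberg threshold. At an unadjusted p under 0.05 there were 7 higher and 3 lower, where 7.38% of all probes were below that p. Their median log2 difference was −0.05, with 42 above 0. The genes given below had limma Benjamini-Hochberg adjusted p between 0.53 and 0.86, so none is called changed. With 3 rats per group this does not show that they were unchanged.

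The receptor Ptafr, given outside the rule for named genes because it is the target of PAF, was at 1.17, 0.91 and 0.29 with vehicle and 0.84, 0.85 and 1.63 with NTA. The groups overlapped, and the log2 difference was 0.32 (SE 0.30) at this probe and 0.23 at another. In the list of the receptor and ether lipid supply, 5 of 11 genes were above 0, with a median of −0.07. The smallest p belonged to Far1, which makes the fatty alcohol of ether lipids, at 0.65 (SE 0.21), and Peds1, the plasmalogen desaturase, at 0.19 (SE 0.10). Far1 was dim, at −4.95, −4.40 and −4.35 with vehicle and −4.23, −3.79 and −3.74 with NTA, though well above background on all 6 arrays.

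In the list of other phospholipases A2 and related lipases, 7 of 14 genes were above 0 (median −0.05). Pla2g2d, a secreted form of lymphoid tissue and macrophages, was at −3.04, −2.57 and −2.38 with vehicle and −1.85, −2.01 and −2.09 with NTA, a log2 difference of 0.68 (SE 0.19). The groups did not overlap. Pla2g4b, a cytosolic relative of Pla2g4a, differed the other way by −0.47 (SE 0.17). Among the other acyltransferases and lysophospholipases, 8 of 17 were above 0 (median −0.07), with Agpat4 at 0.29 (SE 0.11) and Gdpd1 at −0.32 (SE 0.11).

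Eicosanoid synthesis, which draws on the arachidonate that Pla2g4a releases, had 5 of 14 genes above 0 and a median of −0.08. Tbxas1, the thromboxane synthase of platelets and macrophages, was at −0.93, −0.82 and −1.26 with vehicle and −0.37, −0.33 and 0.41 with NTA, a log2 difference of 0.91 (SE 0.24). The groups did not overlap. Alox15, a lipoxygenase that oxidises membrane phospholipids, was at −3.31, −3.19 and −3.06 with vehicle and −2.50, −1.36 and −2.25 with NTA (log2 difference 1.15, SE 0.29), also without overlap.

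The plasma proteins and esterases that share lipoproteins with Pla2g7 were level or slightly lower, 10 of 12 below 0 with a median of −0.09. Apoa1, the main protein of high-density lipoprotein, was at −0.35 (SE 0.17) and Lcat, which esterifies its cholesterol, at −0.18 (SE 0.12). The partners of LIS1 in dynein regulation ran only from −0.10 to 0.12 over 12 genes (median −0.01), with Dctn2 and Bicd2 at −0.10 (SE 0.10) and 0.11 (SE 0.10). LXR targets, the class to which Lpcat3 belongs, had a median of −0.12 over 8 genes, with Abcg1 at 0.52 (SE 0.22) and Mylip at 0.46 (SE 0.15). Lysosomal genes, set beside Pla2g15, had 8 of 13 above 0 and a median of 0.04, with Npc2 at 0.31 (SE 0.14) and Ctsd at 0.22 (SE 0.11).

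Markers of the cells known to make Pla2g7 were also higher with NTA in the mean, though in limma 0 of 24 macrophage markers passed the Benjamini-Hochberg threshold and 2 had an unadjusted p under 0.05. All 24 Kupffer cell and macrophage genes that passed the filter were above 0, with a median of 0.36. This median was 0.07 without vehicle replicate 3 and 0.10 without NTA replicate 3. It was 0.59 without NTA replicate 2, the highest with 1 array left out. The summed signal of the 25 markers with a probe, in units of each array's 75th percentile, was 398, 360 and 209 with vehicle and 379, 290 and 564 with NTA. These groups overlapped. In bulk tissue, more cells of a type and more RNA per cell cannot be told apart.

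Set beside that sum array by array, NTA replicate 2 had a lower macrophage sum than vehicle replicates 1 and 2. Its Pla2g7 value was −0.71 where theirs were −2.12 and −2.92. Vehicle replicate 3, with the lowest sum, was at −2.44, between the other vehicle rats. The sum is weighted towards its brightest markers, among them Clec4f and C1qb, and not every marker gave the order of the sum. Clec4f was at 6.06 in NTA replicate 2 and at 6.71 and 6.34 in vehicle replicates 1 and 2. C1qb was at 5.84, 6.51 and 6.27 in the same arrays. In the other order, Marco was at 1.72, 1.24 and 1.32 there and Mrc1 at 2.57, 2.54 and 2.35. Pla2g4a was lowest in vehicle replicate 3 and highest in NTA replicate 3, the arrays with the lowest and the highest sum, and the other 4 lay between. Ptafr had its lowest and highest values in those same arrays. The part of the macrophage markers in the values of Pla2g7, Pla2g4a and Ptafr was not tested.

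Among the macrophage markers, Marco, a scavenger receptor, was at 1.24, 1.32 and −0.10 with vehicle and 1.67, 1.72 and 2.88 with NTA (log2 difference 1.27, SE 0.48; limma, Benjamini-Hochberg adjusted p = 0.64). Trem2, a lipid-sensing receptor of tissue macrophages, was at −4.41, −4.65 and −4.21 with vehicle and −4.03, −3.20 and −3.08 with NTA (log2 difference 0.98, SE 0.27; limma, Benjamini-Hochberg adjusted p = 0.54). The groups did not overlap for either. The defining Kupffer cell marker Clec4f was bright and overlapped, at 6.12 ± 0.72 with vehicle and 6.54 ± 0.52 with NTA (SD, n = 3 each).

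**Figure D3:**
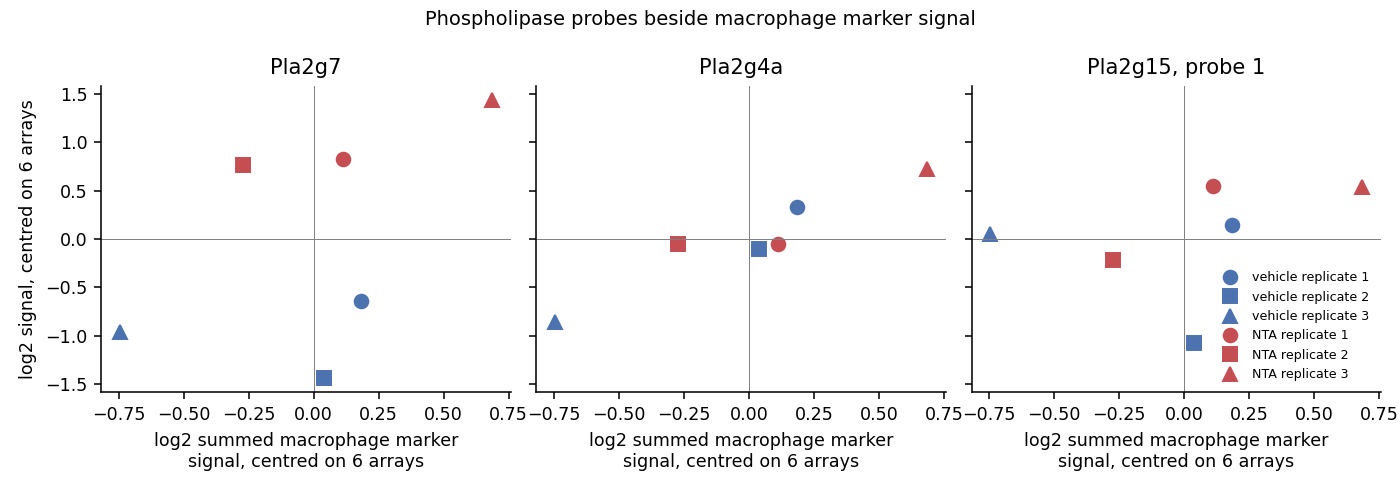
Log2 signal of Pla2g7, Pla2g4a and a Pla2g15 probe on each array against the log2 summed signal of 25 macrophage markers, both centred on the mean of the 6 arrays (n = 3 rats per group, 1 point per rat). The sum is weighted towards its brightest markers. In the Pla2g7 panel the 3 NTA points lie above the 3 vehicle points, with marker sums of 290 to 564 and 209 to 398, and in the Pla2g4a panel vehicle replicate 3 and NTA replicate 3 hold both extremes.

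Markers of other cell types also differed in the mean between the groups. In limma 0 of the 92 marker genes over 9 lists passed the Benjamini-Hochberg threshold, with 19 higher and 2 lower at an unadjusted p under 0.05, where 7.38% of all probes were below that p. Of the neutrophil list 3 of 10 genes passed the filter, and Elane, Ctsg, Mmp8 and Ltf were not well above background on any array. Its summed signal was 1.64 to 2.71 with vehicle and 2.84 to 5.29 with NTA. Above 0 were 2 of the 3, S100a8 and S100a9, which monocytes also make, at log2 differences of 1.21 (SE 0.43) and 1.37 (SE 0.43). The granule peptide gene Camp, named after its values were seen, was at −0.08 (SE 0.22) and its groups overlapped. Sinusoidal endothelium markers were above 0 for 12 of 12 genes (median 0.36), with sums of 77.9 to 94.7 and 104 to 116 and with Tie1 at 0.63 (SE 0.14) and Lyve1 at 0.54 (SE 0.12). Erythroid markers were above 0 for 8 of 9 (median 0.54), with sums of 578 to 640 and 710 to 1120 and with Alas2 at 1.17 (SE 0.22) and Rhd at 1.00 (SE 0.14). These sums are weighted towards the brightest probes of each list. In the neutrophil list S100a9 was at −0.47 with vehicle and 0.90 with NTA, and S100a8 at −1.17 and 0.04. Camp was at −0.55 and −0.63, so the separated neutrophil sums are not read as a rise of the whole list. For the endothelium the brightest was Kdr, at 5.40 with vehicle and 5.62 with NTA, whose groups overlapped. For the erythroid list they were Hba-a1, at 8.56 and 9.10, and Hbb, at 7.88 and 8.36.

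Platelet markers, the cells that gave PAF its name, had 7 of 9 genes above 0 (median 0.10), with sums of 3.46 to 3.79 and 4.10 to 5.12. Of this list Gp1ba was not well above background on any array. The platelet chemokine Pf4 was at 0.07 ± 0.19 with vehicle and −0.06 ± 0.48 with NTA (SD, n = 3 each). Clec1b, a receptor also known from liver endothelium and Kupffer cells, had the smallest p of the list, at 0.95 (SE 0.16). Without Clec1b, a choice made after seeing the data, the platelet sums overlapped, at 2.38 to 2.71 with vehicle and 2.26 to 3.01 with NTA. Ppbp, a platelet chemokine with the next smallest p, was lower with NTA without overlap, at −0.33 (SE 0.12). Mast cell, biliary and stellate cell sums overlapped between the groups, with medians of 0.22, 0.09 and −0.11. Hepatocyte markers were bright on every array, with 9 of 12 below 0 (median −0.13) and sums of 6590 to 7070 with vehicle and 5910 to 6390 with NTA. Whether the makeup of the tissue has a part in the Pla2g7 difference was not tested.

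The array profile most like that of Pla2g7 was sought among 10840 genes with a symbol that were well above background on all arrays. Provisional symbols were among these genes but were passed over when the nearest were named. Likeness was the root mean square distance between log2 profiles over the 6 arrays, each centred on its own mean, and the median distance was 1.08. The nearest were Pdlim4, a PDZ-LIM adaptor (0.24), Cdh13, a lipid-anchored cadherin that binds adiponectin and low-density lipoprotein (0.31), and Tubb3, a beta-tubulin (0.37). Next came Cyp26a1, which breaks down retinoic acid (0.40), Upp2, a uridine phosphorylase of liver (0.41), and S100a9, a myeloid calcium-binding protein (0.41). All 6 were higher with NTA without overlap, which the measure favours for a gene like Pla2g7.

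Within the groups the likeness differed. Cdh13 was at −3.16, −4.29 and −3.51 with vehicle and −1.90, −2.57 and −1.75 with NTA, a log2 difference of 1.58 (SE 0.34), and its other probes gave 1.59 and 0.84. Cdh13, S100a9 and Upp2 had the same order of all 6 arrays as Pla2g7, with S100a9 at 0.23, −1.15 and −0.50 with vehicle and 0.76, 0.33 and 1.59 with NTA. A shared order is also favoured by the measure, which chose these genes over the same 6 arrays, so nothing further is read from it. Cyp26a1 instead varied by an SD of only 0.05 and 0.04 within the groups, where Pla2g7 varied by 0.40 and 0.37. Tubb3 and Cyp26a1 passed limma's Benjamini-Hochberg threshold, with adjusted p = 0.029 and 0.0079, and Pdlim4, Cdh13, Upp2 and S100a9 did not, with adjusted p between 0.16 and 0.57.

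**Figure D4:**
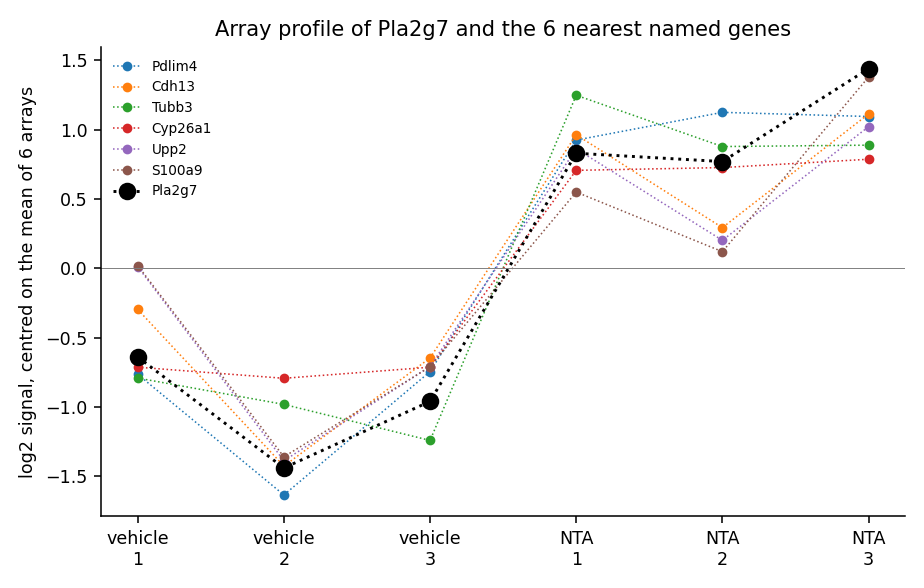
Log2 signal centred on the mean of the 6 arrays for Pla2g7 (black) and the 6 named genes nearest to it, by array (1 rat each). Dotted lines only join the points of a gene, since replicates have no order. All 7 genes lie below their mean or within 0.02 of it on the vehicle arrays and above it on the NTA arrays.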

How the data were processed

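The scanning software was Agilent Feature Extraction, version 10.7.1.1 and design build rn4 per the file headers (10.7 in the submitters' processing notes). In the deposited scanner files the authors give a background-subtracted intensity (gProcessedSignal) and median spot and local background intensities. A series table deposited by the authors gives a linear ratio per probe: 100.0% of its values equalled the processed signal over the array's 75th percentile within 0.0001 plus 0.2%, so direction and scale are known, and it is not independent. Its column medians were 0.0980, 0.0976 and 0.0986 with vehicle and 0.0959, 0.0999 and 0.0969 with NTA.

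Values were log2(gProcessedSignal) minus log2 of the array's 75th percentile over 61657 non-control probes, with 1 spot per probe. Spots flagged as non-uniform (1 to 14 per array, none of a member) were set to missing. The filter kept a probe where either group had it well above background in all 3 rats. RefSeq accessions matched to the GRCr8 gene table gave 1 symbol for 27460 probes and none for 34197. The builds differ, so array coordinates are not given. Promoters are RefSeq's, of GRCr8.

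All 38168 kept probes were fitted in limma 3.58.1 (R 4.3.3; lmFit, eBayes, two-sided, 4 residual and 2.57 prior degrees of freedom), with Benjamini-Hochberg adjustment over all of them. The script was tested on simulated data. With 3 rats against 3 an exact permutation test cannot go below a two-sided p of 0.1 and was not used. For lists, each gene's brightest kept probe was taken. Named genes were all members, list genes that passed (in a list with none, the 2 of smallest p), and the 6 nearest profiles, without provisional symbols. The members and lists were chosen with earlier results of these data known. The alternatives were background correction, normalization, scaling, filter, probe choice, moderation, slide, scan day, replicate block, the series table and leaving out each array. Normexp used the median signals, since no mean signal was among the columns used.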

Additional observations from a re-analysis of the deposited data

How the results depend on the processing

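Over 17 alternatives, 0 member probes and 0 pathway gene probes passed limma's Benjamini-Hochberg threshold in any. The count over all probes, 13, ran from 9 to 16 in the other alternatives that kept all arrays, was 0 with the replicate block, and ran from 6 (without NTA replicate 1) and 7 (without NTA replicate 2) to 11 when 1 array was left out. Replicate numbers did not pair the samples: deviations of same-numbered rats correlated at 0.169, −0.0149 and −0.0919 across probes, and not every rat correlated best with its own number. The block leaves 2 residual degrees of freedom and, being balanced over the groups, could not move a member value. Of 199 member values 196 moved by less than the within-group SD. The other 3 came with normexp: Pla2g7 at 1.40, Pafah2 at 0.06 and Lpcat3 at −0.18. Pla2g7 lay between 1.40 and 2.21 in all 17. Many of these alternatives could not move a member value. Filter, probe choice, moderation and the replicate block leave a probe's own difference unchanged, and the series table holds the same values. The scan-day block gave the same differences as leaving out vehicle replicate 3. The counts of 196 and 17 are therefore no measure of robustness. Probes near background, as of Pafah2 and Lpcat1, limit what can be said of those genes.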

Other observations

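Leukotriene C4 synthase, Ltc4s, which makes a lipid mediator from the arachidonate released beside lyso-PAF, was named after its values were seen. Its probe A_42_P624309 was at −0.61, 0.57 and 0.88 with vehicle and −1.60, −3.27 and 0.44 with NTA. The probe A_64_P106563 was at −1.60, −0.78 and −0.38 with vehicle and −2.14, −3.14 and −0.76 with NTA. Both probes placed NTA replicate 2 lowest and vehicle replicate 3 highest, and the groups overlapped. At the first probe the log2 difference was −1.76 (SE 0.91; limma, Benjamini-Hochberg adjusted p = 0.73), the lowest of the 14 eicosanoid genes. The prostaglandin D synthase Ptgds, also named after its values were seen, was at −3.04, −3.67 and −3.44 with vehicle and −4.60, −3.81 and −4.39 with NTA, without overlap (log2 difference −0.88, SE 0.25; limma, Benjamini-Hochberg adjusted p = 0.54).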
